A study of Mus musculus with 5 samples.

Results

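The genes described here encode the transferases of the 3 main conjugation reactions of the liver, in which glutathione, glucuronic acid or sulfate is joined to a drug, a hormone or another small molecule. A gene was taken when a probe set carried its symbol alone and the symbol began with Gsta, Gstk, Gstm, Gsto, Gstp, Gstt, Gstz, Mgst, Ugt or Sult followed by a number, pseudogenes left out. The rule gave 45 genes of 18820 with such a probe set: 20 glutathione S-transferases (GST), 10 UDP-glycosyltransferases (UGT) and 15 sulfotransferases (SULT). The tested mice received M279, an antibody against the macrophage growth factor receptor CSF1R, and the controls received rat IgG. All were adult C57Bl/6 mice given 300 µg per intraperitoneal injection, 3 times a week for 6 weeks. There were 2 anti-CSF1R and 3 control livers, 1 array each. The labels do not say whether each sample came from a separate mouse, so the p-values speak for these samples only and their spread may be technical.

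Conjugation makes lipophilic compounds more water soluble, so that they can leave the cell through exporters into bile or blood. GST enzymes are mostly soluble and use glutathione, UGT enzymes sit in the endoplasmic reticulum and mostly use UDP-glucuronic acid, and SULT enzymes are soluble and take sulfate from the donor PAPS. Hepatocytes are the main site of all 3 reactions, and the nuclear receptors PXR (Nr1i2) and CAR, the aryl hydrocarbon receptor (Ahr) and NRF2 (Nfe2l2) are known inducers of many of the genes.

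None of the 35556 probe sets of the array passed limma's two-sided test at a Benjamini-Hochberg adjusted p under 0.05, and the smallest adjusted p was 0.175. Csf1r itself was at log2 values of 7.93 and 8.12 in anti-CSF1R livers and 8.49, 8.68 and 8.61 in controls (adjusted p = 0.191). Differences below are log2 intensity, anti-CSF1R minus control, with the standard error (SE) of the fit. The arrays also differed with level: genes whose mean lay under the median probe set (log2 5.04) had a median difference of 0.17, and genes at or above it had one of -0.10. Values of dim genes are therefore given apart. The level of a probe set depends on its probes, so levels are compared between arrays and not between genes.

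The GST genes were mostly higher in anti-CSF1R liver, the UGT genes lay close to the controls, and the SULT genes were mostly higher, with most of them at dim level. Of the 20 GST genes 17 had a difference above 0, with a median of 0.17. Of the 10 UGT genes 4 did, with a median of -0.03, and of the 15 SULT genes 13 did, with a median of 0.19. Over all 18820 genes 56.3% had a difference above 0, with a median of 0.04. None of the 45 passed at an adjusted p under 0.05, where the background was 0% of probe sets, and the smallest adjusted p was 0.192. When the fit was repeated on 1 probe set per gene, 14 genes passed (0.0744%) and none of the 45 was among them. An unadjusted p under 0.05 was found for 7 members, all higher (15.6%), against a background of 9.91% of genes higher and 8.40% lower. In either direction the share of members was below that of all genes, 18.3%. By level, 5 of the 7 were among the 13 members under the median level, where 1640 of 8332 genes were higher at that p. The other 2 were among the 32 members at or above it, where 226 of 10488 genes were.

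**Figure D1:**
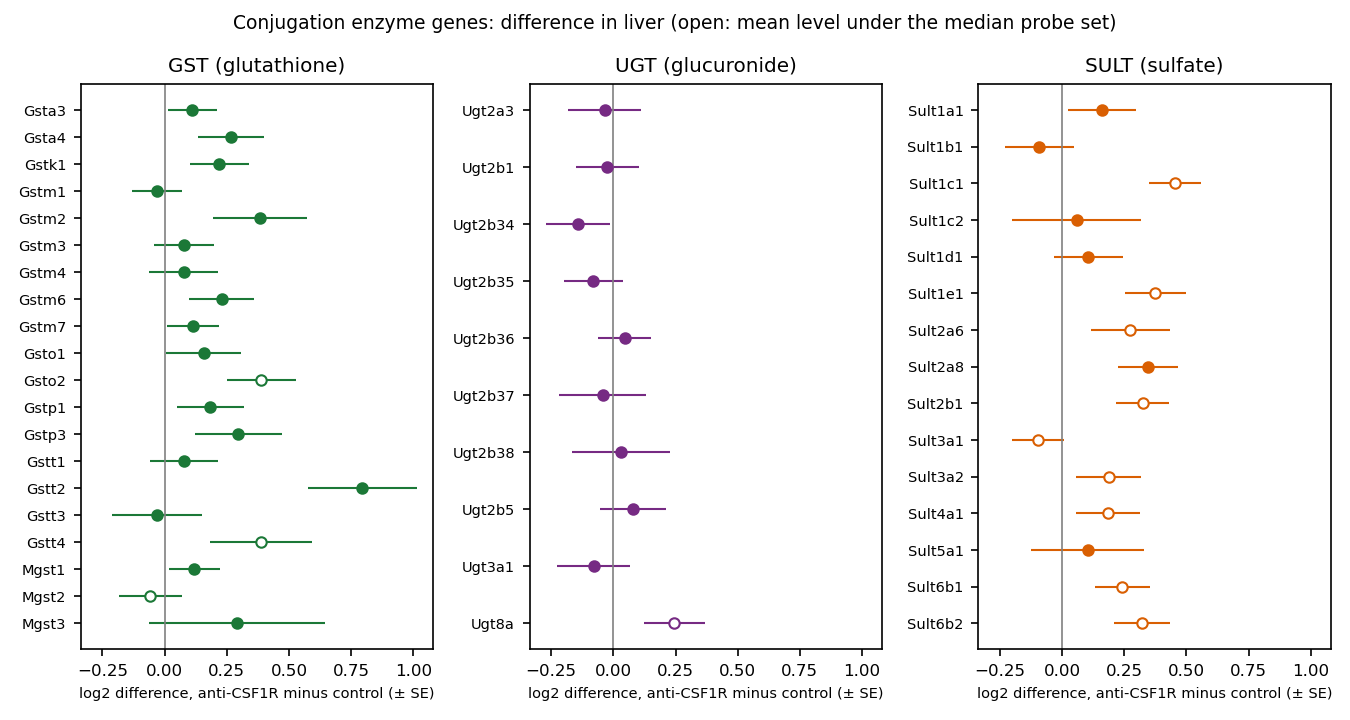
Log2 difference, anti-CSF1R minus control, for each of the 45 genes, with bars of 1 SE from limma (2 anti-CSF1R and 3 control arrays). Open circles are genes whose mean lay under the median probe set. Gstt2 stands furthest from 0, at 0.80, and 9 of the 15 SULT genes are open circles.

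Among GST genes at or above the median level, 15 of 17 were higher in anti-CSF1R liver, with a median of 0.16, while 33.9% of all genes at or above that level were higher, with a median of -0.10. That background moved with level, with a median over all genes of -0.16 between log2 6 and 7 and 0.03 from log2 12 upwards, and most of the 17 GST genes were bright. By a split at a mean of log2 9, chosen after seeing the data, 13 of them lay from there upwards, of which 12 were higher with a median of 0.12, while 49.4% of all 2207 genes there were higher with a median of -0.00357. Of the other 4 GST genes, 3 were higher, while 29.7% of all genes between the median level and log2 9 were, with a median of -0.13. With quantile normalization, 16 of the 17 were higher against 45.9% of genes, and with cyclic loess 15 of 17 against 45.3%. The GST median with cyclic loess was 0.08. When single arrays were left out, 13 to 16 of the 17 were higher. The lowest count, 13, came without control replicate 1, with a median of 0.13, while 32.2% of genes at that level were higher. The groups did not overlap for 16 of the 45 genes (35.6%), against a background of 44.6% of all genes. Of the 45, 15 were above the controls, against 25.1% of all genes, and 1 was below, against 19.5%. By level, 7 of the 13 members under the median level were above, as were 3824 of 8332 genes there. At or above it 8 of 32 members were, and 906 of 10488 genes.

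The theta class held the largest difference. Gstt2, a theta GST, was at log2 8.25 and 8.51 in anti-CSF1R livers and 7.23, 7.60 and 7.93 in controls, a difference of 0.80 ± 0.22 (SE, adjusted p = 0.204 in limma). Both treated values lay above every control, and the controls spread over 0.35 (SD, n = 3). The difference was between 0.62 and 0.97 when any array was left out. Gstt1, Gstt3 and Gstt4 are also on chromosome 10. Gstt1 was at 11.57 and 11.66 in anti-CSF1R livers against 11.34, 11.69 and 11.57 in controls (0.08 ± 0.14), and Gstt3 at 8.77 and 8.50 against 8.37, 8.84 and 8.80 (-0.03 ± 0.18). Both sets of values overlapped. Gstt4, a dim gene, had a difference of 0.39 ± 0.21, with anti-CSF1R replicate 1 (4.51) above all controls and replicate 2 (4.05) among them (3.75 to 4.19). Whether Gstt2 differs from the others was not tested.

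In the alpha class, Gsta4, which conjugates the lipid peroxidation product 4-hydroxynonenal, was at 9.75 and 9.91 in anti-CSF1R livers and 9.40, 9.66 and 9.64 in controls. The groups did not overlap, and the difference was 0.27 ± 0.13 (adjusted p = 0.322 in limma). Gsta3, the enzyme that protects mice from the aflatoxin epoxide, was at 12.17 and 12.21 against 12.11, 12.04 and 12.08 (0.11 ± 0.10), a smaller difference that was also without overlap. Mgst1, the microsomal membrane-bound GST, was at 12.50 and 12.61 in anti-CSF1R livers and at 12.44, 12.43 and 12.43 in controls (0.12 ± 0.10). Its difference was 0.06 without anti-CSF1R replicate 2 and turned to -0.0054 with cyclic loess. The upstream windows of Gsta3 and Mgst1 are shown because they were the only member windows that hold the core of the antioxidant response element, the site through which NRF2 acts on many GST genes. They come from RefSeq's table for GRCm38.p6 and give the 250 bases before the most upstream listed start, 5′ to 3′ on the gene's strand, with the core in capitals. The window of Gsta3 is chr1:21240335-21240584 on the plus strand and that of Mgst1 is chr6:138140277-138140526 on the plus strand.
Gsta3: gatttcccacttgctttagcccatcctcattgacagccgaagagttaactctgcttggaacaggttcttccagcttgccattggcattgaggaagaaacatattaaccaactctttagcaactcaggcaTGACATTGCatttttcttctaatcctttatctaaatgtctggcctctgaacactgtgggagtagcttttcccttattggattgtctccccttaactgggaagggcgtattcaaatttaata
Mgst1: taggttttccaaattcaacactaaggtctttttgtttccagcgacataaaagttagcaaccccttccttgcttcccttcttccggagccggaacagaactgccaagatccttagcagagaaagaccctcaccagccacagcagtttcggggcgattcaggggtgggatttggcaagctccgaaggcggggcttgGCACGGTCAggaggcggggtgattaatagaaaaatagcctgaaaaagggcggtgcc

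The core was searched as TGACNNNGC on both strands, and the capitals of Mgst1 read it on the opposite strand. Windows were found for 42 of the 45 genes. Gsta4, Gstt2 and Sult4a1 had none and were not searched. The core was in 2 of 18 GST, 0 of 10 UGT and 0 of 14 SULT windows, and in 10.1% of 27025 windows of all genes. The core of the xenobiotic response element, GCGTG on either strand, was in 4 GST windows, 1 UGT window and 1 SULT window, and in 28.3% of all windows. A match describes these letters in this window and is not a site of binding.

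The mu class is a cluster of close copies on chromosome 3, and probes of such paralogs can take up each other's transcripts. Of its 6 genes 5 were above 0, between -0.03 for Gstm1 and 0.38 for Gstm2. Gstm2 was at 9.32 and 9.50 in anti-CSF1R livers and 8.73, 9.33 and 9.03 in controls (0.38 ± 0.19), and anti-CSF1R replicate 1 lay just under control replicate 2. The difference of Gstm2 was 0.23 without control replicate 1. Gstm6 was at 10.96 and 10.92 in anti-CSF1R livers and 10.52, 10.80 and 10.81 in controls (0.23 ± 0.13). Gstm7 was at 10.80 and 10.77 against 10.60, 10.71 and 10.72 (0.11 ± 0.10). Neither overlapped its controls, although control replicate 1 was the lowest of the 5 arrays for both. Gstm3 and Gstm4 each differed by 0.08, with overlapping groups, and a second probe set of Gstm3 gave 0.09 ± 0.15. Gstm1 was at 12.16 and 12.20 against 12.22, 12.23 and 12.18, and showed the narrowest range of values in the class.

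Gstk1, the kappa GST of mitochondria and peroxisomes, was at 11.85 and 12.05 in anti-CSF1R livers and 11.63, 11.78 and 11.77 in controls. The treated values lay above all controls, by a difference of 0.22 ± 0.12, and by 0.12 without anti-CSF1R replicate 2. The pi class gave 0.18 ± 0.13 for Gstp1 and 0.30 ± 0.17 for Gstp3. Gstp3 was at 7.79 and 8.17 in anti-CSF1R livers and 7.52, 7.62 and 7.90 in controls, so that anti-CSF1R replicate 1 lay among the controls. Its difference was 0.11 without anti-CSF1R replicate 2 and 0.49 without replicate 1. In the omega class, whose enzymes reduce dehydroascorbate, Gsto1 overlapped (0.16 ± 0.15) and Gsto2, a dim gene, was at 3.76 and 3.58 against 3.43, 3.10 and 3.32 (0.39 ± 0.14, adjusted p = 0.239 in limma, and 0.22 with cyclic loess). Mgst2, a leukotriene C4 synthase at dim level, differed by -0.06 ± 0.13. Mgst3, a microsomal GST with peroxidase activity, was at 6.41 and 7.36 in anti-CSF1R livers and 6.08, 6.86 and 6.84 in controls (0.29 ± 0.36). Of the 45 genes it had the widest spread between the treated arrays, at an SD of 0.67.

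**Figure D2:**
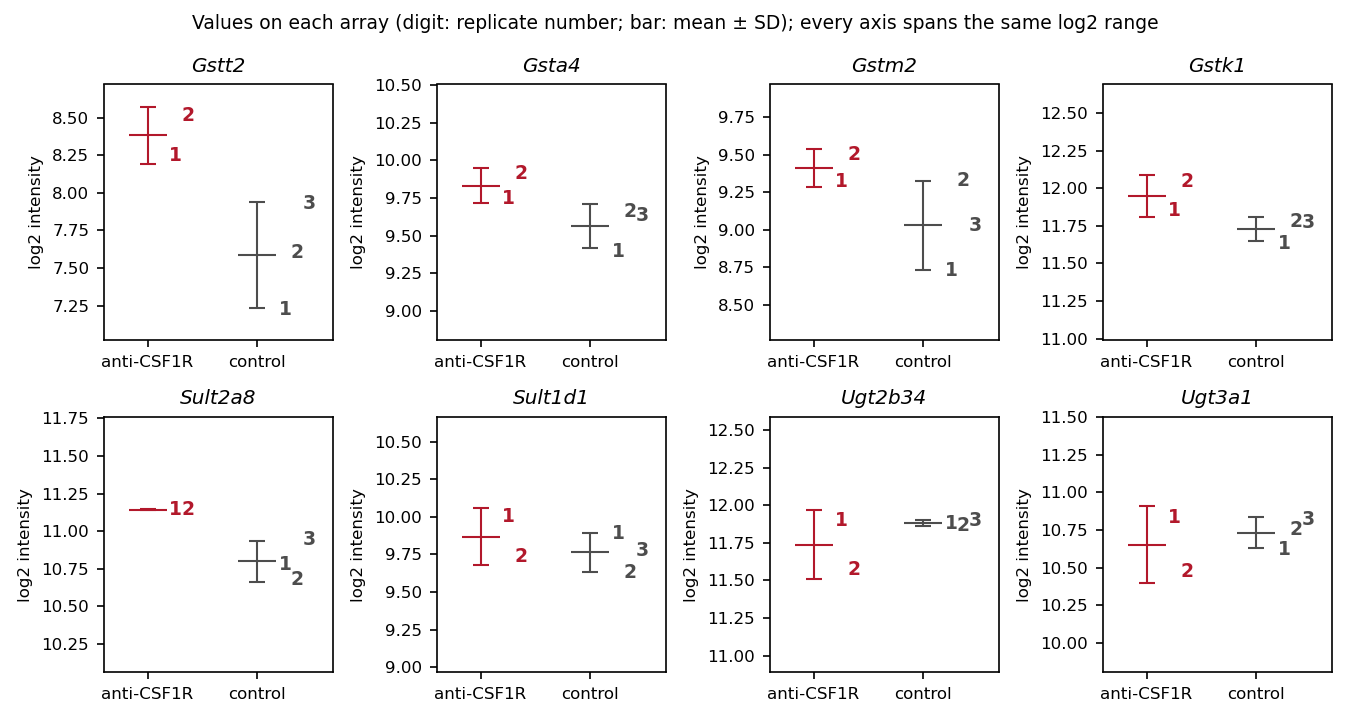
Log2 intensity of 8 genes on each array, with digits for the replicate number and bars for the mean ± SD (2 anti-CSF1R, 3 control). The treated arrays lie above all controls for Gstt2, Gsta4, Gstk1 and Sult2a8, while for Ugt2b34 and Ugt3a1 anti-CSF1R replicate 2 lies below all controls and replicate 1 level with or just above the highest.

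UGT2 enzymes glucuronidate steroids, bile acids and drugs, and their genes lie together on chromosome 5. The 8 measured UGT2 genes were at or above the median level and stayed between -0.14 and 0.08. None had groups apart, while 41.2% of all genes at that level did. Ugt2b34 had the smallest p among them. It was at 11.90 and 11.58 in anti-CSF1R livers and 11.88, 11.86 and 11.90 in controls (-0.14 ± 0.13, adjusted p = 0.540 in limma). The controls agreed to an SD of 0.02, and the treated arrays lay apart from each other by far more. Ugt2b1 showed the same order, at 11.92 and 11.64 against 11.86, 11.75 and 11.79 (-0.02 ± 0.13), and so did Ugt2b35, at 9.99 and 9.73 against 9.97, 9.93 and 9.93 (-0.08 ± 0.12). Ugt2a3 was at 11.19 and 10.87 against 11.00, 10.98 and 11.22 (-0.04 ± 0.15). Ugt2b36 and Ugt2b5 differed by 0.04 ± 0.11 and 0.08 ± 0.13, and Ugt2b37 and Ugt2b38 by -0.04 ± 0.17 and 0.03 ± 0.20. For the last 2 genes control replicate 1 held the highest value of the 5 arrays.

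Ugt3a1, whose human counterpart uses UDP-N-acetylglucosamine, was at 10.84 and 10.47 in anti-CSF1R livers and 10.62, 10.75 and 10.82 in controls (-0.08 ± 0.15). Ugt8a makes the galactosylceramide of myelin and was dim, at 3.83 and 3.59 against 3.53, 3.48 and 3.38 (0.25 ± 0.12), with 0.12 without anti-CSF1R replicate 1 and 0.08 with cyclic loess. The count of UGT genes above 0 rested on single arrays: it was 9 of 10 without anti-CSF1R replicate 2, 2 of 10 without anti-CSF1R replicate 1 and 2 of 10 without control replicate 2. The median was 0.09, -0.09 and -0.07 in these cases. It was 0.01 with arrays centred on their medians and 0.00292 without control replicate 1, so no direction is given for the family.

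The treated arrays differed from each other in opposite ways for the GST and UGT families. Of 17 GST genes at or above the median level, 13 were higher on anti-CSF1R replicate 2 than on replicate 1, while of 9 UGT genes at that level 1 was. Against the control mean, the GST median at this level was 0.10 on replicate 1 and 0.21 on replicate 2, and the UGT median was 0.08 on replicate 1 and -0.16 on replicate 2. On replicate 2, 5 of these 9 UGT genes lay below all 3 controls, near the share of all genes at that level (5076 of 10488). On replicate 1 none of the 9 did, against 4995 of 10488. Over all genes at or above the median level, 5343 of 10488 were higher on replicate 2 than on replicate 1. With 2 arrays this is a description of them, with no test.

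**Figure D3:**
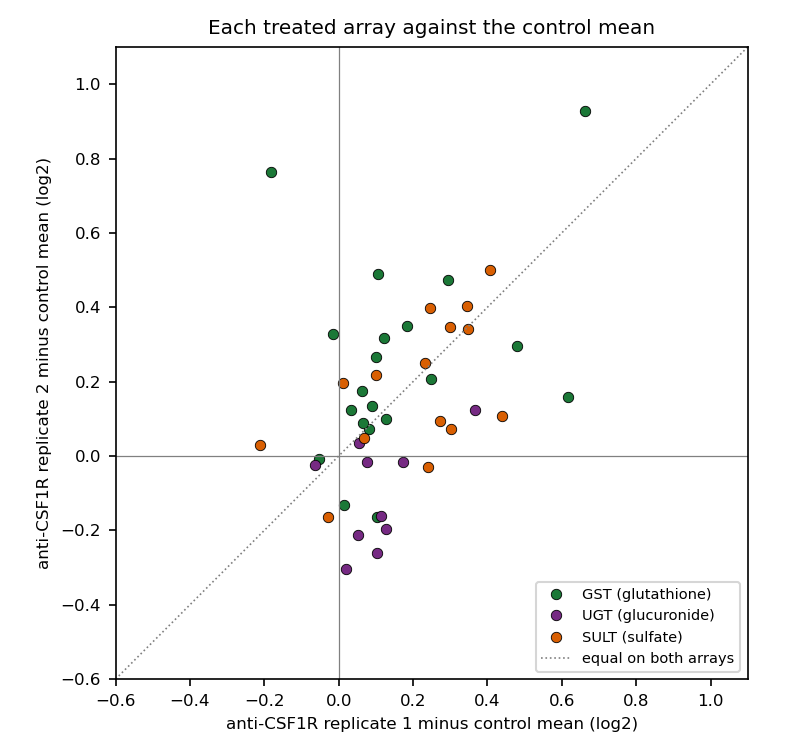
Each of the 45 genes by its log2 difference from the control mean on anti-CSF1R replicate 1 (horizontal) and on replicate 2 (vertical). The dotted line marks equal differences on both arrays. All but 1 of the 9 UGT genes at or above the median level lie below it, and most GST genes lie above it.

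Among the sulfotransferases, Sult2a8 had the smallest p of the genes at or above the median level. It encodes a bile acid sulfotransferase of mouse liver. Its values were 11.15 and 11.14 in anti-CSF1R livers and 10.78, 10.68 and 10.94 in controls, a difference of 0.34 ± 0.12 (adjusted p = 0.236 in limma). The treated arrays agreed closely and lay above all controls. When single arrays were left out it was between 0.28 and 0.42. Its 250 bases before the more upstream of 2 listed starts, chr7:14446588-14446837 on the minus strand (RefSeq, GRCm38.p6), are shown because it had that p. They hold none of the motifs searched, which would stand in capitals.
Sult2a8: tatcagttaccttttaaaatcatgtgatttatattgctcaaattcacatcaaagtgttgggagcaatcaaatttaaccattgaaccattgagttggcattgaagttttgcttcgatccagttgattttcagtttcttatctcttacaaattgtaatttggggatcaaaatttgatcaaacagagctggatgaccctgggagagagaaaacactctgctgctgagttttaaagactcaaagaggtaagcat

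The third motif was GTTAATNAT, part of the site of the hepatocyte factor HNF1, searched on both strands. It was in the windows of Sult1d1 and Sult2a6, 2 of 14 SULT windows, in 0 of 18 GST and 0 of 10 UGT windows, and in 0.788% of all windows. Sult1d1, which sulfates catecholamines in mice, was at 10.00 and 9.73 in anti-CSF1R livers and 9.89, 9.63 and 9.77 in controls (0.10 ± 0.14). Sult2a6 was dim and also overlapped (0.27 ± 0.16).

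The remaining SULT genes at or above the median level overlapped between groups, while 41.2% of all genes at that level did not. Sult1a1, the main phenol sulfotransferase, differed by 0.16 ± 0.14, with 9.35 and 9.47 in anti-CSF1R livers and 9.08, 9.25 and 9.42 in controls. Sult1b1, which acts on thyroid hormones, differed by -0.09 ± 0.14. Sult1c2 (0.06 ± 0.26) and Sult5a1 (0.10 ± 0.23) varied more among the controls than between the groups. Control replicate 1 was the lowest array for Sult1c2, at 5.83, and the highest for Sult5a1, at 7.02.

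The 9 dim SULT genes had a median difference of 0.27, and 8 of them were above 0, while 84.5% of all genes under the median level were above 0, with a median of 0.17. Sult1c1 had the smallest p of the 45 genes. It was at 2.81 and 2.90 in anti-CSF1R livers and 2.39, 2.45 and 2.37 in controls, a difference of 0.45 ± 0.10 (adjusted p = 0.192 in limma) that was 0.28 with cyclic loess. Sult1e1, the oestrogen sulfotransferase, was at 2.67 and 2.73 against 2.46, 2.33 and 2.19 (0.37 ± 0.12). Sult2b1, the cholesterol sulfotransferase known from skin, was at 3.68 and 3.72 against 3.36, 3.30 and 3.46 (0.32 ± 0.11). Sult6b2 was at 2.82 and 2.98 against 2.57, 2.65 and 2.51 (0.32 ± 0.11). All 4 had groups apart, which the rule for naming them required. Of all genes under the median level, 3824 of 8332 also lay above all controls on both treated arrays. At these intensities the median over all genes was 0.16 under log2 3 and 0.20 between log2 3 and 4, and with cyclic loess the 4 genes lay between 0.14 and 0.28.

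Sult6b1 differed by 0.24 ± 0.11, also with groups apart. Sult3a2 (0.19 ± 0.13) and Sult4a1, known from brain (0.18 ± 0.13), overlapped. Without anti-CSF1R replicate 1 they were at 0.07 and 0.09, and with cyclic loess at 0.01 and 0.02. Sult3a1, an amine sulfotransferase that is higher in female than in male mouse liver, was at 2.10 and 1.96 in anti-CSF1R livers and 2.14, 2.11 and 2.13 in controls. It was the only member whose treated values lay below all controls (-0.10 ± 0.10).

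**Figure D4:**
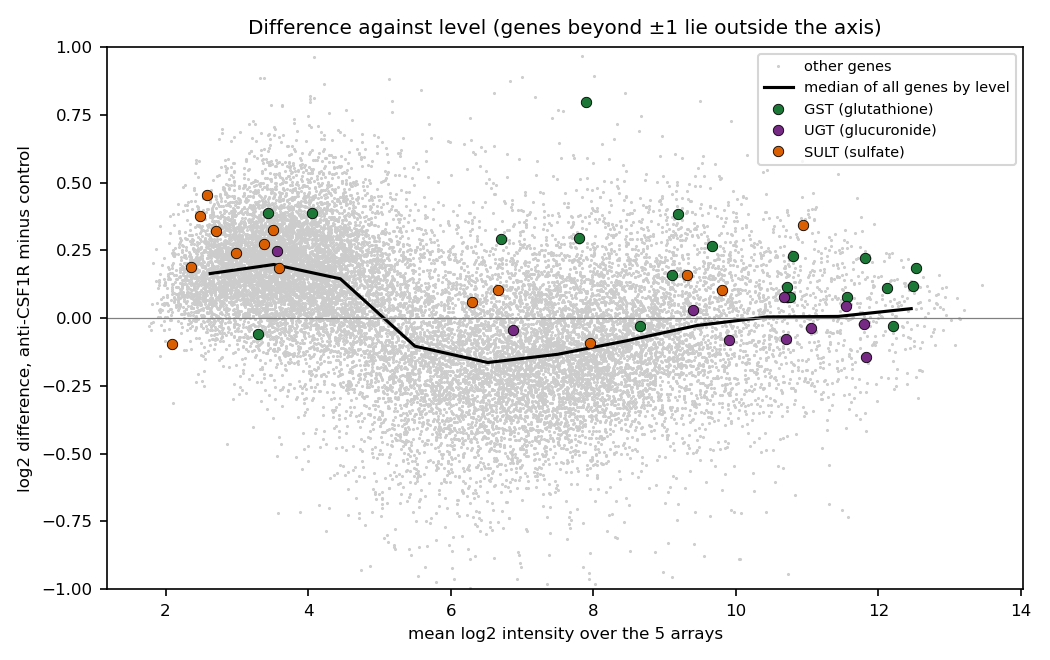
Log2 difference, anti-CSF1R minus control, against mean log2 intensity over the 5 arrays for 18820 genes, with GST, UGT and SULT genes in colour and a line for the median of all genes by level. The line lies above 0 at dim levels and below 0 in the middle, and the GST genes at or above log2 5.04 lie mostly above it.

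Probe sets that carry several symbols fell outside the rule, and 15 of them name a conjugation gene. The probe set of the shared UGT1A exons, whose products include the bilirubin enzyme, was at 10.73 and 10.63 in anti-CSF1R livers and 10.62, 10.74 and 10.74 in controls (-0.02 ± 0.11). Probe sets of Gstp1 and Gstp2 together gave 0.25 ± 0.15 and 0.24 ± 0.15, close to the 0.18 of Gstp1 alone. The 4 probe sets of Gsta1 and Gsta2 differed by 0.08 to 0.15, and control replicate 1 was the lowest array on each. Gstz1, an isomerase of tyrosine breakdown, shares its probe set with Pomt2, which gave 0.04 ± 0.10. Probe sets of Sult2a1 and Sult2a2 were dim and gave -0.18 ± 0.15 and 0.08 ± 0.12.

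Genes that supply, carry or remove the co-substrates or their conjugates had differences mostly below 0. So did genes at or above the median level at large, of which 33.9% were above 0. Of 7 measured genes of sulfate donor supply and removal, 6 were below 0 and 1 above. Their median was -0.09, and that of all genes at or above the median level was -0.10. An unadjusted p under 0.05 in limma was found for 2 of the 7, and for 16.3% of all genes at or above the median level. Papss1, which makes the sulfate donor PAPS, was at 6.38 and 6.27 in anti-CSF1R livers and 6.90, 6.81 and 6.81 in controls (-0.52 ± 0.11, adjusted p = 0.189 in limma). The sulfate transporter Slc26a2 was at 5.57 and 5.67 against 6.07, 6.42 and 6.19 (-0.60 ± 0.14). Both lay below all controls. Papss2, which also makes PAPS, differed by only -0.09 ± 0.13.

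Of 6 genes listed for UDP-glucuronic acid supply, transport and glucuronide cleavage, 4 were below 0, with a median of -0.17. The list also holds the transporters Slc35b1 and Slc35a3, so the count does not describe supply of UDP-glucuronic acid alone. The lysosomal glucuronidase Gusb was at 6.82 and 6.90 in anti-CSF1R livers and 7.31, 7.12 and 7.16 in controls (-0.34 ± 0.11). Slc35d1, which carries UDP-glucuronic acid into the endoplasmic reticulum, was at 9.41 and 8.85 against 9.47, 9.55 and 9.51 (-0.38 ± 0.18), so that most of its difference came from anti-CSF1R replicate 2. Of 13 genes of glutathione supply and breakdown, 9 were below 0. Their median was -0.08, and none had an unadjusted p under 0.05 in limma. The list mixes genes that make glutathione with genes that degrade it, so the count gives no direction of supply. Chac1, which degrades glutathione, differed by -0.42 ± 0.20, and the synthetase Gss by -0.20 ± 0.12.

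Of 9 measured regulators, 5 were above 0, and Nr1i3, encoding CAR, had no probe set with its symbol alone. The xenobiotic receptor Nr1i2 was at 9.46 and 9.25 in anti-CSF1R livers and 9.28, 9.13 and 9.16 in controls (0.16 ± 0.12), and Nfe2l2, encoding NRF2, overlapped too (-0.06 ± 0.13). Ahr was at 8.96 and 8.98 against 8.92, 8.95 and 8.91, a difference of 0.05 ± 0.10. Its dimer partner Arnt was at 9.15 and 8.82 against 9.45, 9.40 and 9.49 (-0.46 ± 0.13, adjusted p = 0.207 in limma), below all controls. Hnf4a differed by -0.18 ± 0.11. Of 8 conjugate exporters, 6 were below 0, as were 6937 of 10488 genes at or above the median level. Abcc1 was at -0.45 ± 0.19, and the steroid transporter Slc51a, a dim gene, was at 0.52 ± 0.16. Among 11 further enzymes, which included the epoxide hydrolases Ephx1 and Ephx2 beside conjugating ones, 5 were above 0. The glycine conjugation enzyme Glyat was at 0.26 ± 0.12 and the histamine methyltransferase Hnmt at -0.25 ± 0.13.

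Markers of other liver cells and of hepatocyte zones were read on the same arrays. Of 8 hepatocyte markers 4 were above 0, and the log2 of their summed intensity was 15.79 and 15.78 in anti-CSF1R livers and 15.78 to 15.84 in controls. None of the marker lists held a gene at 0. Of 10 macrophage and Kupffer cell markers 7 were below 0, with sums of 11.76 and 12.16 against 12.004 to 12.18. On anti-CSF1R replicate 1, 9 of these 10 lay below all controls, and on replicate 2, 2 did, while the scavenger receptor Marco was above all controls on both (1.34 ± 0.17). All 10 were at or above the median level, where 6937 of 10488 genes were below 0. Of those 10488 genes, 4995 lay below all controls on replicate 1 and 5076 on replicate 2. Of 8 pericentral markers 5 were above 0, with sums of 14.53 and 14.36 in anti-CSF1R livers against 14.39 to 14.46 in controls, and of 5 periportal ones 2 were, with sums of 14.51 and 14.40 against 14.41 to 14.55. Sinusoidal endothelial markers (2 of 6 above 0) had sums of 12.03 and 11.98 against 11.85 to 11.91. Clec4g had the highest intensity in that sum, at 11.02 and 11.04 against 10.70, 10.77 and 10.70, while 4 of the 6 were below 0. Stellate cell markers (4 of 6 above 0) had 11.80 and 11.74 against 11.68 to 11.77, and cholangiocyte markers (2 of 5 above 0) had 8.06 and 7.59 against 7.97 to 8.11. Their part in the differences of the conjugation genes was not tested. In whole liver, fewer cells of a type and less RNA per cell cannot be told apart. Since several of these genes differ between male and female mice, sex-linked transcripts were also read. Xist was dim on every array (3.10 and 3.24 in anti-CSF1R livers, 3.18 to 3.34 in controls), and Kdm5d, a Y-linked gene, was at 7.55 and 7.57 against 7.67 to 7.92. Genes higher in male mouse liver (7 of 9 above 0) had sums of 14.66 and 14.65 in anti-CSF1R livers against 14.49 to 14.76 in controls, and those higher in female liver (5 of 7 above 0) had 9.45 and 8.92 against 8.75 to 9.26.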

How the data were processed

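RNA of 5 mouse livers was amplified and hybridised to 1 array each. The deposited table holds the authors' intensity per probe set on a linear scale, with array medians between 32.5 and 33.9. Per the submitters' processing notes the authors used Affymetrix Expression Console 1.1, with settings not given in the sources used here. Amplification and an unknown normalization can shift dim against bright genes.

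Log2 was taken without a pseudocount or filter. Names came from the platform's annotation: 21218 probe sets had 1 symbol, 1881 several and 12457 none. Each gene was read from its probe set of highest mean. limma 3.58.1 in R 4.3.3 (lmFit, eBayes) was fitted to all 35556 probe sets and adjusted over them; the steps were tested on simulated data. The members, lists and tests were chosen with earlier results of these data known. Genes named with values are the members of an unadjusted p under 0.05 with groups apart, the member of smallest p in each class and up to 2 partners of smallest p per list, with Nr1i2, Ahr and Nfe2l2. Others were chosen after their values were seen. Alternatives were other normalizations, a dim filter, 1 probe set per gene, another variance model, a replicate block and each array left out. Figures used matplotlib 3.10.9 in Python 3.11.15. With so few arrays precision was limited, at a median SE of 0.138.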

Additional observations from a re-analysis of the deposited data

How the results depend on the processing

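No member passed an adjusted p of 0.05 in limma under any alternative run, with 7 at an unadjusted p under 0.05 and 16 with groups apart. Over all probe sets 0 were called, except for 14 of 18820 when 1 probe set per gene was tested, and 6559 had an unadjusted p under 0.05. The GST median lay between 0.10 and 0.21 under every alternative, and 16 to 19 of 20 genes were higher (16 of 18 after the dim filter, 15 of 17 at or above the median level and 12 of 13 from log2 9 upwards, the last 2 added after seeing the data). The SULT median was 0.225 with arrays centred on their medians, 0.144 with cyclic loess and 0.228 with the replicate block, and 0.169 to 0.293 when single arrays were left out. It was 0.104 (5 of 6 higher) both when probe sets below the 25th percentile of level were dropped and, as added after seeing the data, over members at or above the median level; fewer genes enter there. The UGT median ranged from -0.0924 to 0.0897 and the count above 0 from 2 to 9 of 10 when single arrays were left out. Mgst1 turned to -0.0054 with cyclic loess. With single arrays left out, Sult5a1 ranged from -0.0706 to 0.305, Ugt2b34 from -0.305 to 0.0200 and Ugt3a1 from -0.261 to 0.103. The cause was not tested. The replicate numbers are shared by the groups, but nothing in the labels ties them. Same-numbered arrays correlated at 0.0268 and 0.0325 in their deviations from the group means. With 2 treated arrays each value recurs with the opposite sign for the other treated array, so no conclusion is drawn on pairing. The block called 0 probe sets, and its differences equalled those without control replicate 3 (0.967 for Gstt2 in both).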
